A study of Mus musculus with 6 samples.

Results

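The enzymes that turn squalene into cholesterol were followed in the livers of mice fed a regular diet (RD) or a high-cholesterol diet (HCD). They were taken by gene name as Sqle, Lss, Cyp51, Msmo1, Nsdhl, Hsd17b7, Ebp, Sc5d and Dhcr7, which are 9 of the 20673 genes in the deposited tables. All 9 were present there and all 9 passed the filter on low counts. Liver RNA was sequenced from C57BL/6J mice, an inbred laboratory strain, with 3 livers from RD-fed mice and 3 from mice fed HCD for 3 days, without any other treatment. Per the study's methods, the HCD held added cholesterol, cocoa butter and sodium cholate, a bile acid salt that aids cholesterol uptake, whereas the RD was a rodent chow lower in cholesterol and fat. Added cholesterol, fat and cholate therefore cannot be told apart in this comparison.

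Squalene is a linear intermediate of cholesterol synthesis. In the endoplasmic reticulum it is made into an epoxide, folded into the ring system of lanosterol, stripped of its extra methyl groups, and rearranged and reduced to cholesterol. The genes of this pathway are classical targets of SREBP2, a transcription factor held in the endoplasmic reticulum when sterols are abundant and released to the nucleus when they are scarce. Hepatocytes make much of the cholesterol that the body synthesises.

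Counts on genes totalled 13771630 to 23129576 per RD liver and 13935491 to 18545549 per HCD liver. Levels are given as CPM (counts per 1000000 counts of the library, scaled with edgeR's TMM factors), and a negative log2 fold change means a lower level with HCD. The threshold for a call was an adjusted p of 0.05, from the quasi-likelihood test of edgeR with Benjamini-Hochberg correction across the 13105 genes that passed the filter. Hepatocyte markers were abundant in both groups. The 6 hepatocyte markers summed to 89370 to 116800 CPM with RD and 95820 to 136200 CPM with HCD, and lists for Kupffer, sinusoidal endothelial, stellate and biliary cells, leukocytes and red cells also had overlapping sums. Of the markers in these 7 lists 2 were called, both among the 5 tested red cell markers, while 3.27% of all tested genes were called in either direction. These 2 were the globin genes Hba-a1 (log2 fold change 2.41) and Hbb-bs (2.28), both higher with HCD. Hbb-bt, another globin gene of that list, was also higher in every HCD liver than in any RD liver, but was not called (2.60, adjusted p = 0.0552). The part of these globin genes in the results below was not tested. In bulk liver, fewer cells of a type and less RNA per cell cannot be told apart. HCD replicate 1 stood apart from the other 5 livers in its sex-linked transcripts, with 5032 Xist counts against 0 in each other liver and 0 counts of the Y-linked Ddx3y against 426 to 1229, and the labels give no sex. The diets are therefore partly mixed with sex-linked expression. Without this liver 7 of the 9 enzymes were called lower, against 135 of all 13230 genes tested in that fit. The call lost was that of Sc5d, whose log2 fold change was -1.12 without this liver against -1.11 with it, and which lost its call whichever of the 6 livers was left out.

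Of the 9 enzymes, 8 fell with HCD and 0 rose. These 8 calls compare with 1.32% of all tested genes called lower, and with 3.27% called in either direction. The median log2 fold change of the 9 enzymes was -2.03, against 0.0074 over all tested genes. The same 8 enzymes had all 3 HCD livers below all 3 RD livers, a pattern found in 13.7% of tested genes in that direction. An exact permutation test of 3 livers against 3 cannot give p under 0.1, and each of these 8 reached that value. The falls were unequal along the pathway, from Sqle, at 4.99% of its RD level, to Ebp, at 76.9% and not called. By unadjusted p, Sqle, Cyp51, Lss, Msmo1 and Nsdhl ranked 1, 2, 5, 9 and 21 among all 13105 genes tested.

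**Figure D1:**
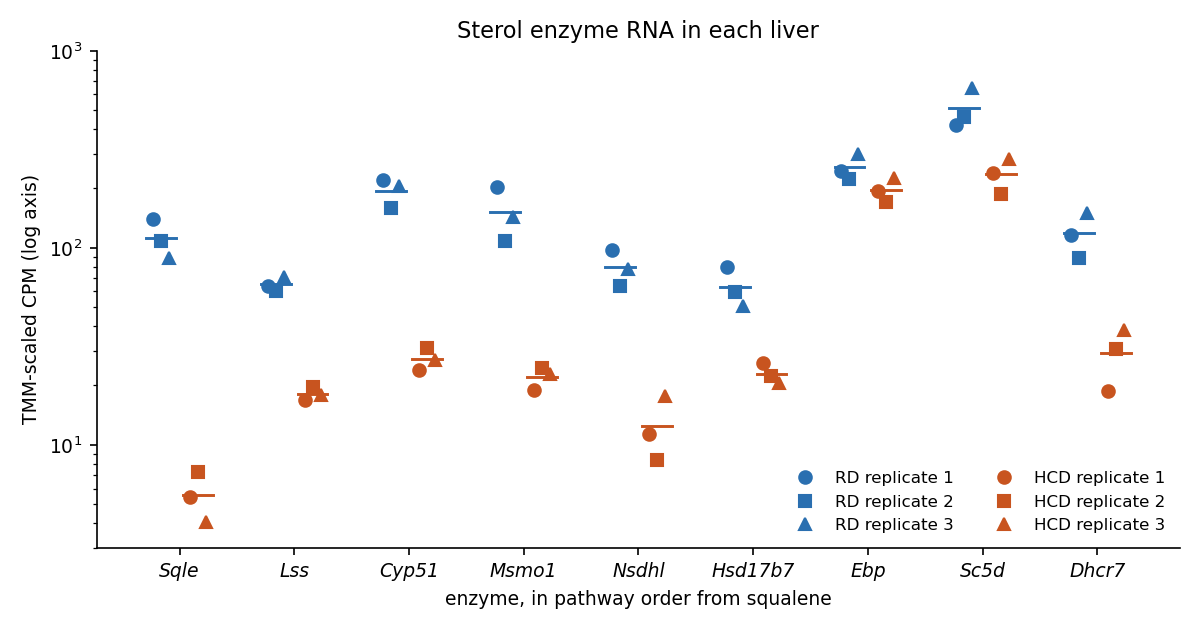
TMM-scaled CPM (log axis) of each enzyme in each of the 6 livers, in pathway order, with a bar at the mean of each diet. The HCD livers lie below the RD livers for 8 enzymes, and for Ebp the highest HCD liver (227 CPM) passes the lowest RD liver (224 CPM).

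Sqle (ENSMUSG00000022351, chromosome 15) encodes squalene monooxygenase, which adds oxygen to squalene and is regarded as a rate-controlling step of the pathway. Its level was 140, 108 and 88.8 CPM in the RD livers and 5.41, 7.24 and 4.05 CPM in the HCD livers, each in the order of replicates 1 to 3. The lowest RD liver held 12.3 times the level of the highest HCD liver, the widest gap of the 9 enzymes. Sqle fell by 4.33 on the log2 scale (standard error 0.26, adjusted p = 0.000736), a 20.1-fold difference. The HCD values rest on 107, 105 and 50 counts, where 50 counts carry an exact 95% Poisson interval of 37.1 to 65.9 that covers counting error only.

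Lss (ENSMUSG00000033105, chromosome 10) encodes lanosterol synthase, which closes the epoxide into the sterol rings. It stood at 64.1, 60.5 and 71.1 CPM in the RD livers and at 16.9, 19.7 and 18.0 CPM in the HCD livers, in replicate order. Within a diet the Lss values were the tightest of all 9 enzymes, with the highest liver 1.18 times the lowest under RD and 1.16 times under HCD. Lss fell by 1.84 (standard error 0.14, adjusted p = 0.00129), which left 27.9% of the RD level. An antisense gene on the other strand, 4930483K19Rik, covers 3.53% of the Lss exon bases, and without a stated strand setting reads there cannot be told apart.

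Cyp51 (ENSMUSG00000001467, chromosome 5) encodes the cytochrome P450 that removes the methyl group at carbon 14 of lanosterol, and is the target of azole drugs in fungi. The RD livers held 222, 159 and 205 CPM and the HCD livers 24.0, 30.9 and 27.0 CPM. The diets were thus separated 5.13 times over, from the lowest RD to the highest HCD value. The log2 fold change was -2.84 (standard error 0.18, adjusted p = 0.000736). Exons of Akap9, on the other strand, cover 3.76% of those of Cyp51.

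The next 3 enzymes work together to strip both methyl groups from carbon 4. Msmo1 (ENSMUSG00000031604, chromosome 8), the methylsterol monooxygenase that oxidises these groups, was at 203, 108 and 144 CPM with RD and at 19.0, 24.6 and 23.0 CPM with HCD. RD livers differed most among themselves here, with the highest 1.87 times the lowest, yet the lowest of them held 4.41 times the level of the highest HCD liver. Msmo1 fell by 2.78 (standard error 0.24, adjusted p = 0.00245).

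Nsdhl (ENSMUSG00000031349, chromosome X), the dehydrogenase that removes the oxidised carbon, was at 97.4, 64.2 and 78.2 CPM with RD. Its HCD levels were 11.3, 8.41 and 17.7 CPM, the widest relative spread among HCD livers (2.10-fold). Nsdhl fell by 2.69 (standard error 0.28, adjusted p = 0.00496). Because Nsdhl is X-linked and HCD replicate 1 alone expressed Xist, the comparison was repeated without that liver, which gave -2.62 (adjusted p = 0.0135).

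Hsd17b7 (ENSMUSG00000026675, chromosome 1) encodes the reductase that turns the resulting ketone back into an alcohol. It was at 79.6, 59.4 and 50.9 CPM with RD and at 26.1, 22.3 and 20.7 CPM with HCD. All RD livers lay above all HCD livers. Hsd17b7 fell by 1.46 (standard error 0.19, adjusted p = 0.0124), which left 36.5% of the RD level, the most among these 3 enzymes. The call was lost without RD replicate 2 (adjusted p = 0.0503) and without HCD replicate 3 (adjusted p = 0.0531).

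Ebp (ENSMUSG00000031168, chromosome X) encodes the sterol isomerase that shifts the ring double bond and also binds emopamil. Its level was 245, 224 and 300 CPM with RD and 195, 170 and 227 CPM with HCD, and the highest HCD value passed the lowest RD value (p = 0.2 by an exact permutation test, two-sided). The log2 fold change was -0.38 (standard error 0.17, adjusted p = 0.252), with a 95% interval of -0.77 to 0.012. This interval overlaps that of the smallest fall called, Sc5d, at -1.61 to -0.61. Ebp is X-linked as well, and without HCD replicate 1 its log2 fold change was -0.37 (adjusted p = 0.325).

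Sc5d (ENSMUSG00000032018, chromosome 9) encodes the desaturase that adds the double bond of 7-dehydrocholesterol, the precursor of both cholesterol and vitamin D. It was the most counted of the 9 genes, at 422, 462 and 646 CPM with RD and 240, 188 and 283 CPM with HCD. All HCD livers lay below the RD livers, with a gap of 1.49 times. Sc5d fell by 1.11 (standard error 0.22, adjusted p = 0.0371). Its call was lost whichever liver was left out. The adjusted p rose to 0.112, 0.122 or 0.0868 on leaving out RD replicate 1, 2 or 3, and to 0.0613, 0.0734 or 0.0742 on leaving out HCD replicate 1, 2 or 3. The log2 fold change itself stayed between -1.26 and -0.90 in these 6 fits.

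Dhcr7 (ENSMUSG00000058454, chromosome 7) encodes 7-dehydrocholesterol reductase, the enzyme deficient in Smith-Lemli-Opitz syndrome. It was at 116, 88.7 and 151 CPM with RD and at 18.8, 30.7 and 38.3 CPM with HCD. All RD livers were above all HCD livers, although the HCD values spanned 2.04-fold. Dhcr7 fell by 2.03 (standard error 0.28, adjusted p = 0.0130), and without RD replicate 1 it was not called (adjusted p = 0.0649). A stretch of 220 bases in Dhcr7 transcripts is 98.6% identical to one in Dhtkd1, and no other enzyme of the 9 had a similar gene over 200 bases at 90% identity.

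**Figure D2:**
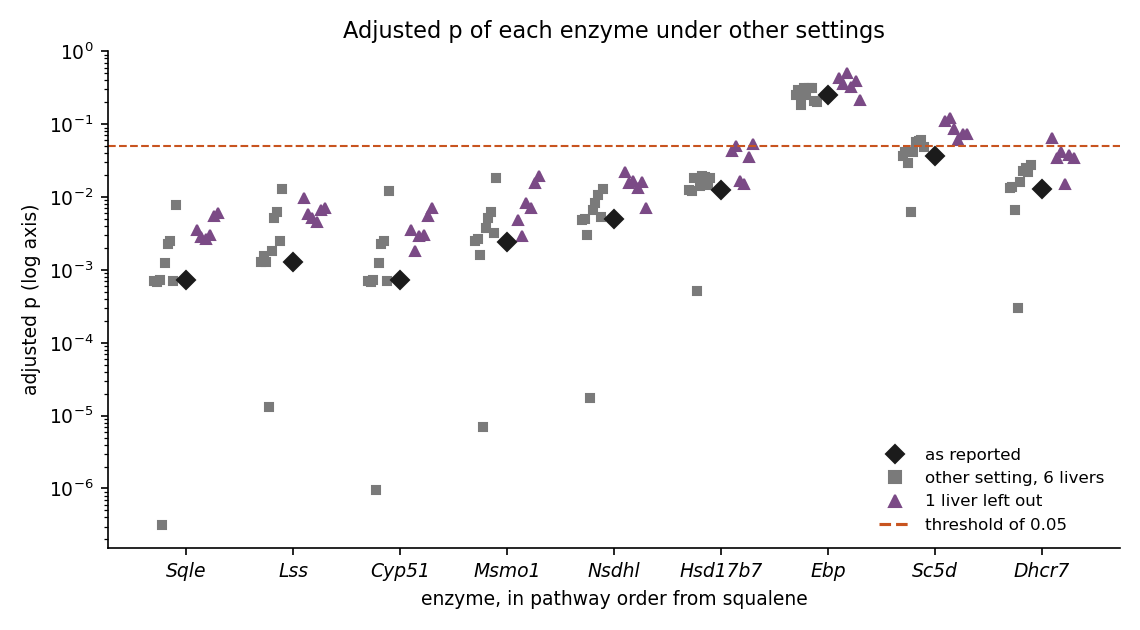
Adjusted p (log axis) of each enzyme as reported, under 9 other settings with all 6 livers, and with each liver left out; the DESeq2 Wald test, which called the same 8 enzymes, is not drawn. Sqle, Lss, Cyp51, Msmo1 and Nsdhl stay under the dashed threshold of 0.05 throughout, Ebp lies above it throughout, and all 6 leave-one-out fits of Sc5d lie above it.

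Levels of different enzymes can be compared only per length, for which the deposited FPKM (fragments scaled by gene length and library total) were used. In RD livers Ebp (163 ± 28.4 FPKM, SD, n = 3) and Sc5d (154 ± 39.3) led, with overlapping values. They were followed by Cyp51 (64.7 ± 11.5), then by Nsdhl (41.0 ± 8.70), Msmo1 (36.2 ± 11.4), Dhcr7 (29.9 ± 8.52) and Sqle (29.5 ± 6.52), each of which overlapped the next. Hsd17b7 (18.1 ± 4.07) and Lss (8.85 ± 0.923) were lowest, each below every value of the enzyme before it. The 2 most abundant enzymes per length were thus the 2 with the smallest log2 fold changes.

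With HCD Sqle went from rank 7 to the last place, rank 9, at 1.48 ± 0.396 FPKM (SD, n = 3), below every Lss value, while Hsd17b7 went from rank 8 to rank 5. Ebp (127 ± 20.6) now lay above Sc5d (72.5 ± 15.7) in every liver. Cyp51 (9.16 ± 0.967), Dhcr7 (7.45 ± 2.50), Hsd17b7 (6.71 ± 0.887), Nsdhl (6.50 ± 2.56) and Msmo1 (5.35 ± 0.614) followed, and each of these overlapped the next. Lss was at 2.50 ± 0.138 FPKM.

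Summed over the 9 enzymes, FPKM was 548, 459 and 626 in the RD livers and 237, 201 and 278 in the HCD livers. The ratio of the means was 2.28, and it was 5.83 when Ebp and Sc5d were left out of the sum. These 2 had the smallest log2 fold changes, so a larger ratio follows from leaving them out. Ebp made up 28.1%, 30.3% and 31.0% of the sum in the RD livers and 53.7%, 53.0% and 53.0% in the HCD livers. The HCD livers were close to each other in this share and all above the RD livers (p = 0.1, the smallest that the exact permutation test can give). The mean FPKM of Ebp itself was lower with HCD, at 127 against 163. Its larger share follows from the larger falls of the other enzymes and is not a separate result. The share of Sqle went from 5.53% ± 1.51 (SD, n = 3) to 0.651% ± 0.274 and that of Cyp51 from 11.9% ± 1.25 to 3.93% ± 0.961. The shares of Sc5d and Hsd17b7 overlapped between diets, at 28.1% ± 4.56 against 30.2% ± 2.07 for Sc5d and 3.39% ± 0.905 against 2.86% ± 0.593 for Hsd17b7.

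**Figure D3:**
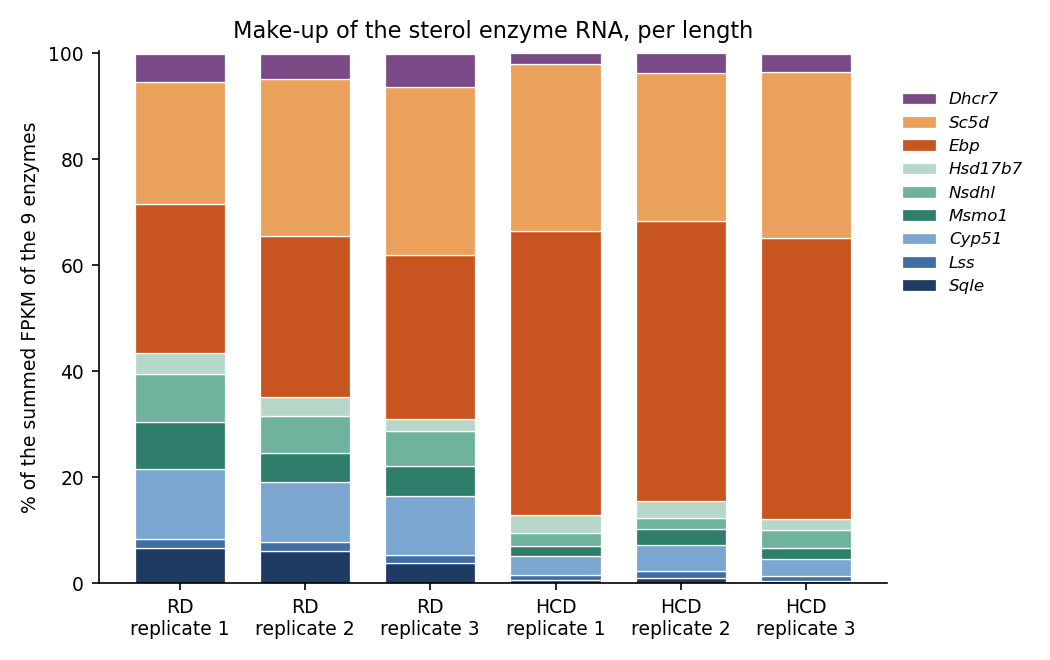
Share (%) of each enzyme in the summed FPKM of the 9 enzymes, one stacked bar per liver. Ebp takes 28.1% to 31.0% of the sum in RD livers and 53.0% to 53.7% in HCD livers, and Ebp and Sc5d together 51.1% to 62.8% and 80.8% to 85.1%.

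To ask whether neighbouring steps moved by unequal amounts, each enzyme was set against the next within the same liver, as a difference in log2(CPM + 0.5), in which the scaling of a library cancels except for the added 0.5. For 6 of the 8 neighbouring pairs the diets did not overlap, in either direction, as for 26.4% of all pairs of tested genes. The widest shift was between the first 2 steps. Sqle minus Lss was 1.12, 0.83 and 0.32 in the RD livers and -1.56, -1.39 and -2.02 in the HCD livers, a shift of -2.41. These values are not per length, so only the shift between diets, and not which gene of a pair is higher, can be read from them. Lss against Cyp51 shifted the other way, by 1.00. Nsdhl against Hsd17b7 shifted by -1.26 and Hsd17b7 against Ebp by -1.04, with the later enzyme of each pair keeping more of its RD level. Ebp against Sc5d shifted by 0.72 and Sc5d against Dhcr7 by 0.93.

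The pairs Cyp51 with Msmo1 and Msmo1 with Nsdhl overlapped between diets, with shifts of -0.10 and -0.032 (p = 0.5 and 0.9 by exact permutation tests). The log2 fold changes of these 3 enzymes (-2.84, -2.78 and -2.69) differed by less than the standard error of any of them. The other 6 pairs each reached the smallest p of the exact permutation test, 0.1, which is 0.133 after Benjamini-Hochberg correction over the 8 pairs, so that none could pass 0.05 with this test.

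**Figure D4:**
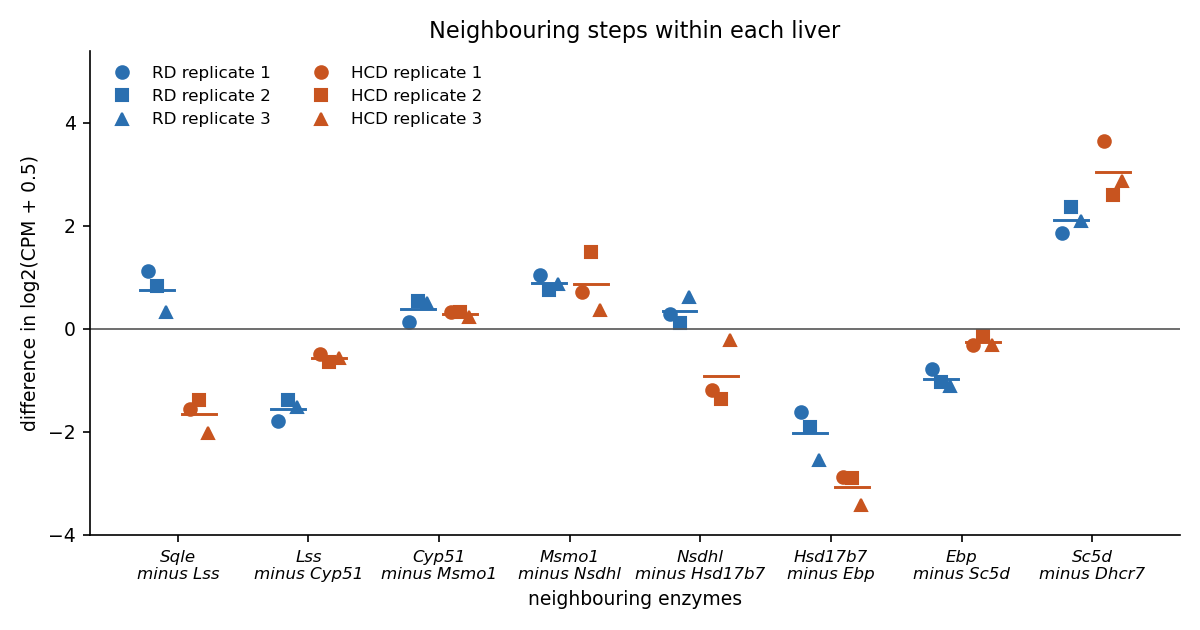
Difference in log2(CPM + 0.5) between each enzyme and the next along the pathway, within each of the 6 livers, with a bar at the mean of each diet. The values are not per length, so only shifts between diets can be read. Sqle minus Lss shifts by -2.41, and Cyp51 minus Msmo1 and Msmo1 minus Nsdhl overlap between diets.

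Within a diet the enzymes did not share 1 order of livers. Among RD livers, replicate 1 was highest for Sqle, Cyp51, Msmo1, Nsdhl and Hsd17b7, and replicate 3 was highest for Lss, Ebp, Sc5d and Dhcr7. RD replicate 2 was lowest for 6 of the 9. Among HCD livers, replicate 2 was highest for Sqle, Lss, Cyp51 and Msmo1, replicate 3 for Nsdhl, Ebp, Sc5d and Dhcr7, and replicate 1 for Hsd17b7 only. These orders are a description of 3 livers per diet and were not tested.

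The other genes of the pathway were counted from lists. Of 9 genes for the mevalonate steps up to squalene, 8 were called lower and 0 higher, with a median log2 fold change of -1.65. Among all tested genes 1.32% were called lower, and the median log2 fold change was 0.0074. Fdft1, squalene synthase, which makes the substrate of Sqle, was at 162, 114 and 149 CPM with RD and at 88.7, 57.1 and 65.9 CPM with HCD, and fell by 1.00 (adjusted p = 0.0380). The step before Sqle thus fell less than Sqle itself. The log2 fold changes were -4.22 for Mvd and -3.69 for Idi1, which make and isomerise the isoprenoid unit, and between -1.85 and -0.89 for Acat2, Hmgcs1, Mvk and Pmvk. Fdps, which joins isoprenoid units into farnesyl diphosphate, was also called lower (adjusted p = 0.0130) but had only 4, 3 and 3 counts in the HCD livers against 182, 82 and 53 in the RD livers, so no fold is given. The remaining gene, Ggps1, on the branch to geranylgeranyl diphosphate, was at 0.053 (adjusted p = 0.913). The number called over all 23 genes of the 4 lists was 11, all lower, and fell to 2 without RD replicate 1, 5 without RD replicate 2, and 6 without RD replicate 3, HCD replicate 2 or HCD replicate 3.

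Of 3 further genes that act after squalene, 1 was called lower, Tm7sf2, against 1.32% of all tested genes. Tm7sf2, a reductase of the carbon 14 double bond that Cyp51 leaves, was at 160, 129 and 187 CPM with RD and at 35.6, 46.7 and 59.9 CPM with HCD, a log2 fold change of -1.74 (adjusted p = 0.0101). Lbr, a nuclear membrane protein with the same reductase activity, was not called (-0.35, adjusted p = 0.496), and its diets overlapped. Erg28, thought to tether the demethylation enzymes, was at -0.47 (adjusted p = 0.104).

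**Figure D5:**
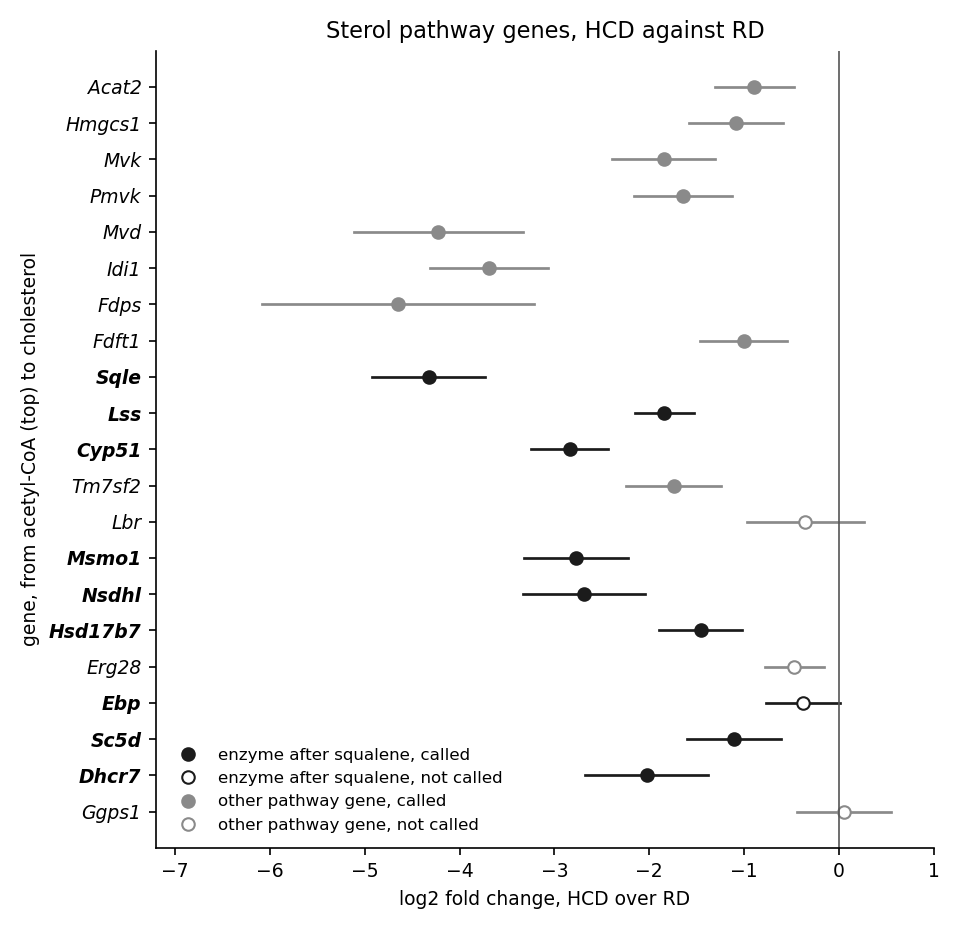
Log2 fold change (HCD over RD) with its 95% interval for the 9 enzymes after squalene (black, bold names) and other genes of the pathway (grey), where filled points were called and open points were not. The HCD livers held only 3 or 4 counts of Fdps, whose fitted point depends on the prior count, Ggps1 is drawn last as a branch of the pathway, and Ebp (-0.38) is the only open point among the 9 enzymes.

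The enzymes draw electrons from Por, the reductase that serves Sqle and Cyp51, and from the cytochrome b5 system, which serves Msmo1 and Sc5d. None of the 4 electron donor genes was called by edgeR, though all 4 had an unadjusted p under 0.05, as did 20.9% of all tested genes, and they went in both directions. Por was at 186, 164 and 261 CPM with RD and 533, 385 and 243 CPM with HCD, so that its diets overlapped (log2 fold change 0.93, adjusted p = 0.127). The log2 fold changes were 0.66 for Cyb5a (adjusted p = 0.102), -0.48 for Cyb5b (adjusted p = 0.126) and -0.86 for Cyb5r3 (adjusted p = 0.0552). DESeq2 called 17 of the 23 genes of all lists, 3 of them higher, against 7.20% of the genes to which it gave an adjusted p.

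Of 7 genes for SREBP2, its processing and enzyme turnover, Srebf2 and Insig1 were called lower and none higher. The share called lower over all tested genes was 1.32%. Srebf2, which encodes SREBP2, was at 102, 75.1 and 71.4 CPM with RD and 46.1, 43.4 and 33.4 CPM with HCD, and fell by 1.02 (adjusted p = 0.0296). Insig1, which holds the SREBP2 complex in the endoplasmic reticulum, fell by 1.20 (adjusted p = 0.0307). Scap, the SREBP2 escort, was at -0.63 (adjusted p = 0.0622) and Insig2, the relative of Insig1, at 0.86 (adjusted p = 0.0636). March6, the ubiquitin ligase that marks squalene monooxygenase for breakdown, was at -0.27 (adjusted p = 0.276).

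Promoter sequences were available from RefSeq on GRCm38.p6 for 8 of the 9 enzymes, all but Sqle, as 250 bases before to 50 bases after a start site. They were searched on both strands for CCAAT, the box bound by NF-Y, for GGGCGG, the box bound by Sp1, and for TCACNCCA and its longer form TCACNCCAC, which resemble sites bound by SREBP. NF-Y and Sp1 are known partners of SREBP at sterol genes. Counted by gene, CCAAT was found in at least 1 promoter of all 8 enzymes, against 42.9% of the 9776 tested genes with a promoter, and GGGCGG also for all 8, against 67.0%. TCACNCCA was found for 1 enzyme, Msmo1, against 4.49%, and TCACNCCAC for 0, against 1.45%. Counted by promoter, CCAAT was found in 8 of the 10 windows of these enzymes, against 37.4% of all 32851 promoters, GGGCGG in 9 of 10, against 35.7%, TCACNCCA in 1 of 10, against 4.36%, and TCACNCCAC in 0 of 10, against 1.24%. Of the 3 Dhcr7 start sites only the third had CCAAT. The matches are letters in these windows and were not tested as binding sites.

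Promoters are shown for a pair with large falls, Cyp51 (chr5:4104648-4104947, minus strand, log2 fold change -2.84) and Msmo1 (chr8:64733529-64733828, minus strand, -2.78), and for the pair with the smallest changes, Ebp (chrX:8193463-8193762, minus strand, -0.38) and Sc5d (chr9:42264251-42264550, minus strand, -1.11). Each reads 5′ to 3′ along the gene, and capitals mark CCAAT, its reverse complement ATTGG, and TCACNCCA.
Cyp51: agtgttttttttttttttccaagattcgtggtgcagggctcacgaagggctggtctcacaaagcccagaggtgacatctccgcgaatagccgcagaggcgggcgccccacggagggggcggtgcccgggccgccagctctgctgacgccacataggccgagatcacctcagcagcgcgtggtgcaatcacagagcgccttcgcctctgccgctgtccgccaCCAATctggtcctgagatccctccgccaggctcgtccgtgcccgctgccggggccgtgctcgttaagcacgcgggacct
Msmo1: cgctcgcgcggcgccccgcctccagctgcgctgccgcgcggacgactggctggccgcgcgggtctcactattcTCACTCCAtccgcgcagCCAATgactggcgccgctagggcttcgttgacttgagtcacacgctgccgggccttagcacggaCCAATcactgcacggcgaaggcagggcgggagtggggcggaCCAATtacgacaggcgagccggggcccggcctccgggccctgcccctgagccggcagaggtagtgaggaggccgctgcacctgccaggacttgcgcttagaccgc
Ebp: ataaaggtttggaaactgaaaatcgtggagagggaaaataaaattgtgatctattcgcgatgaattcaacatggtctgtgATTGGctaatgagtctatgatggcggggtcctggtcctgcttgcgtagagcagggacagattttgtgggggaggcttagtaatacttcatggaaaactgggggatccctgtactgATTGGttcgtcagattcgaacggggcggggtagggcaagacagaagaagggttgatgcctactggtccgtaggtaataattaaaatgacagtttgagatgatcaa
Sc5d: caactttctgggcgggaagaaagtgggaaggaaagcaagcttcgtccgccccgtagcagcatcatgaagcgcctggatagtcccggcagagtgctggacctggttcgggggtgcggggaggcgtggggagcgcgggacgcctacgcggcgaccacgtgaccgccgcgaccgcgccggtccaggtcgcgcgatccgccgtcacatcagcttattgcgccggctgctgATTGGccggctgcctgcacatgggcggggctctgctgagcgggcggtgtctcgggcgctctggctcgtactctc
The Msmo1 window held 3 CCAAT boxes, which begin 160, 96 and 55 bases before the start, and TCACNCCA beginning 177 bases before it. Cyp51 had 1 CCAAT, 29 bases before the start, Ebp had 2 on the other strand, 170 and 55 bases before it, and Sc5d had 1 on the other strand, 24 bases before it. CCAAT was found for all 8 enzymes with a promoter, so its presence could not differ between these pairs. Whether it goes with the size of a fall was not tested. Ebp had the lowest share of G and C of all 10 windows, 45.3% against a range up to 71.0%.

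The genes whose levels across the 6 livers most resembled the mean standardised profile of the 9 enzymes, among 9108 others with a mean of at least 5 CPM, were Gm3571 (Pearson r 0.998), Itch (0.997), Hspa4l (0.993), Ugt1a6b (0.992) and Nlrp6 (0.992). The 6 livers of these correlations share the diet difference, and no test was made. The sizes of their differences varied. The log2 fold change was -3.26 for Gm3571, a predicted gene (adjusted p = 0.00295), and -1.05 for Hspa4l, a heat shock protein of the Hsp110 family (adjusted p = 0.0130). Itch, a ubiquitin ligase, was at -0.35 (adjusted p = 0.140), Ugt1a6b, a glucuronosyltransferase, at -0.39 (adjusted p = 0.126) and Nlrp6, an inflammasome sensor, at -0.53 (adjusted p = 0.0569), and these 3 were not called. The enzymes themselves followed their mean profile with r from 0.826 (Ebp) to 0.989 (Cyp51).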

How the data were processed

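Liver RNA was sequenced by Novogene, with 3 livers per diet and 1 library per liver. The authors deposited raw read counts per gene, whole numbers without normalization, and FPKM, scaled by gene length and by a library total that is not stated. The submitters' processing notes name STAR, HTSeq, DESeq2, edgeR and GRCm39. The gene lengths implied by the deposited values, however, matched GENCODE M21 (GRCm38) within 0.1% for 95.1% to 95.3% of genes with at least 10 counts. Start and end positions of genes are therefore not printed, and the only ones given are those of promoter windows, on GRCm38.p6. The strand setting and library kit are not given in the sources used here. Columns with the authors' own fold changes and p-values were not used, and 21 symbols stored as dates were restored from gene IDs.

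Counts were tested in R 4.3.3 with edgeR 4.0.16: filterByExpr by diet, TMM (factors 0.886 to 1.07), glmQLFit and glmQLFTest without covariates, and Benjamini-Hochberg adjustment. The scripts were tested on simulated data. Exact permutation tests (scipy 1.17.1) were two-sided. Similar genes were sought with minimap2 2.31. The biological coefficient of variation was 27.8%. Labels do not say whether replicates came from separate cages or days, so p-values measure only the spread between these livers. The library names begin with A for RD and with Liver for HCD. The labels do not say why, and a separate collection or run, if any, cannot be told apart from diet. The precision at low levels is set by depth, where 3 counts stand for 0.130 to 0.243 CPM after TMM scaling. Alternatives were DESeq2 1.42.0, other scalings and filters, limma 3.58.1 on log2 FPKM, removal of a length trend, a replicate block and each liver left out. The 9 enzymes, the gene lists and the naming rule (the enzymes, called or neighbouring pathway genes, and the 5 most similar profiles) were chosen with earlier results of these data known. The other list genes that were not called, and the globin genes, were named after their values were seen. Some genes of the pathway are not reported here.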

Additional observations from a re-analysis of the deposited data

How the results depend on the processing

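All 9 enzymes kept a negative log2 fold change in each of 16 alternative fits per gene, and Sqle, Lss, Cyp51, Msmo1 and Nsdhl were called in all 16. The number of the 9 enzymes called was 5 at an adjusted p under 0.01, and 6 to 8 in the other alternatives, with Sc5d lost in both limma-trend fits on FPKM (adjusted p = 0.0573 with FPKM plus 1 and 0.0597 with FPKM plus 0.1) and with the length trend removed (adjusted p = 0.0602). The median log2 fold change of the enzymes stayed between -2.27 and -1.79. Of the 23 other pathway genes, 11 were called as reported, 17 with DESeq2, 2 at an adjusted p under 0.01 and 2 to 10 with 1 liver left out. The number of all genes called, 428 as reported, was 995 with DESeq2, on 13822 genes given an adjusted p, 649 without a filter, on 20673 genes, 251 with the length trend removed, 136 with the replicate block, 40 at an adjusted p under 0.01, 249 when a log2 fold change of 1 or more in size was also required, and 36 to 335 with 1 liver left out (36, 51 and 146 without RD replicates 1, 2 and 3, and 103 without HCD replicate 3). The cause of these differences was not tested. The replicate numbers did not pair the livers: deviations of same-numbered livers from their diet mean correlated at -0.084, 0.12 and -0.030, and 2 of the 6 livers correlated best with their own number. The replicate block left the same 8 enzymes called and 9 of the other pathway genes. Ebp was called in 0 of its 16 alternatives (adjusted p from 0.183 to 0.499), which does not show that it was unchanged.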
